A study of Mus musculus with 12 samples.

Results

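Nrf2 is a transcription factor that raises the expression of antioxidant and detoxifying genes when a cell meets electrophilic or oxidative stress. It binds DNA as a pair with a small Maf protein, at sites of which one part is read by Nrf2 and the other by the Maf partner. The AY allele is known as a change of alanine to tyrosine in the basic region of Nrf2, the part that touches DNA, at a position where Maf proteins carry a tyrosine. The genomic regions described here are those at which the AY protein was mapped repeatedly and the wild-type (WT) protein was not. They are called AY-only regions below.

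The peak lists came from ChIP-seq, the sequencing of DNA precipitated with an antibody, here against Nrf2, and the cells were peritoneal macrophages of mice. There were 3 ChIP libraries of wild-type cells and 3 of cells homozygous for the AY allele, labelled Nrf2(AY/AY). The cells of both genotypes came from mice aged 7 to 8 weeks, 4 days after injection of 4% thioglycolate broth, an irritant that recruits macrophages. Both were treated in culture with 100 µM diethyl maleate (DEM), an electrophile, for 4 hours. No untreated cells are among the samples, and the labels give neither strain nor sex nor whether the libraries of 1 genotype came from separate animals, so a p-value here reflects how these libraries scatter, and that scatter may be technical. The label of the cells could not be checked against marker genes, because peak lists measure no expression.

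AY-only regions were chosen from the presence of peaks alone. The 8644 peaks of the 6 lists formed 4147 regions once any sharing 1 bp or more had been joined, and a library was said to hold a region if one of its peaks lay in it. A region was AY-only if at least 2 of the 3 AY libraries and 0 of the 3 WT libraries held it. This was so at 805 regions, 19.4% of the 4147. Of these, 389 (9.38% of all regions) were held by all 3 AY libraries and 416 (10.0%) by exactly 2. These counts depended on which peaks entered: with the 826 top-scoring peaks of every library there were 466 AY-only regions, 307 held by 3 and 159 by exactly 2, and with scores of at least 100 there were 441, of which 220 and 221. Because the choice used the peaks, their number and their scores in the AY lists are a description and not a test. Lacking a peak means that a site did not pass the threshold of the peak caller in that library, and since the lists give no read counts, the depth behind each absence is unknown. No gene is named and no binding motif was searched, since no sequence or annotation of the mm9 build, on which the peaks lie, was used here.

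The AY-only regions made up a large part of what the AY protein occupied reproducibly. Of the 1309 regions held by at least 2 AY libraries (31.6% of all), 805 had no WT peak, which is 61.5%. The same share with the genotypes exchanged was 49.1%, 524 of the 1068 regions held by at least 2 WT libraries. These shares were not compared at equal list lengths, and the WT lists had 1604, 826 and 1533 peaks. AY replicates 1, 2 and 3 held 798, 722 and 479 of the 805 regions. Their lists had 2154, 1441 and 1086 peaks, and AY-only regions took 37.0%, 50.2% and 44.2% of these.

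Most regions held by exactly 2 AY libraries were missing from the shortest list. AY replicates 1 and 2 alone held 326 of the 416, AY replicates 1 and 3 alone held 83, and AY replicates 2 and 3 alone held 7. The missing library seldom had a peak close by. Within 1 kb of the region AY replicate 3 had a peak in 4 of 326 cases, AY replicate 2 in 1 of 83 and AY replicate 1 in 0 of 7. The number of AY-only regions thus leaned on AY replicate 1. Leaving it out gave 396 regions held by AY replicates 2 and 3 and no WT library, and leaving out AY replicate 2 gave 472, where both remaining AY libraries had to hold the region. Without AY replicate 3, 715 regions were held by exactly 2 AY libraries, against the 416 of the full set.

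Each library was also set against regions chosen without it, to describe whether such sites recur by genotype. This is not independent evidence, since the same lists served in turn to choose regions and to be looked up. One AY and one WT library were left out at a time, in all 9 pairs. Regions held by both other AY libraries and by neither other WT library were then looked up in the pair left out. AY replicate 1 held 97.7% of them, averaged over its 3 WT partners (96.7% to 98.2%). AY replicate 2 held 82.8% (81.9% to 84.0%) and AY replicate 3 held 55.2% (54.4% to 56.1%). WT replicate 1 held 10.5% (9.26% to 12.0%), WT replicate 2 held 0.563% (0.503% to 0.632%) and WT replicate 3 held 3.90% (2.19% to 5.26%). Every AY library thus stood above every WT library. These sets held 398 to 788 regions each. With WT replicate 1 left out, the left-out AY library held 442 regions whichever it was. With WT replicates 2 and 3 left out these numbers were 391 and 404. For a given WT partner the AY shares thus differ only in the number of regions chosen.

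Left-out AY libraries held 78.6% ± 21.5 of the regions and left-out WT libraries 4.99% ± 5.06 (SD, n = 3 libraries each). The difference was 73.6 percentage points (two-sided exact permutation p = 0.1, as small as 3 against 3 libraries can give). These values are not independent, because each library helped to choose the regions looked up in others. The permutation shuffled finished values and did not choose regions anew under exchanged labels. This p and the other p-values of the exercise are therefore descriptive, and the SDs do not measure independent replicate scatter. When regions held by both other AY libraries were taken whatever the other WT libraries held, the shares were 82.1% and 34.2%, a difference of 47.9 percentage points (two-sided exact permutation p = 0.1). The background was the share of all regions of the other 4 libraries that a left-out library held. It was 46.5%, 34.1% and 24.9% for AY replicates 1, 2 and 3 and 34.4%, 18.7% and 31.5% for WT replicates 1, 2 and 3. All 3 AY libraries held more of the AY-only regions than of regions at large, and all 3 WT libraries held fewer. Part of this is built into the choice. The background also includes regions seen in only 1 library and regions with a peak in the other WT libraries. Within each genotype the share of AY-only regions held followed the order of the list lengths, which were 1604, 826 and 1533 peaks in WT replicates 1, 2 and 3.

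**Figure D1:**
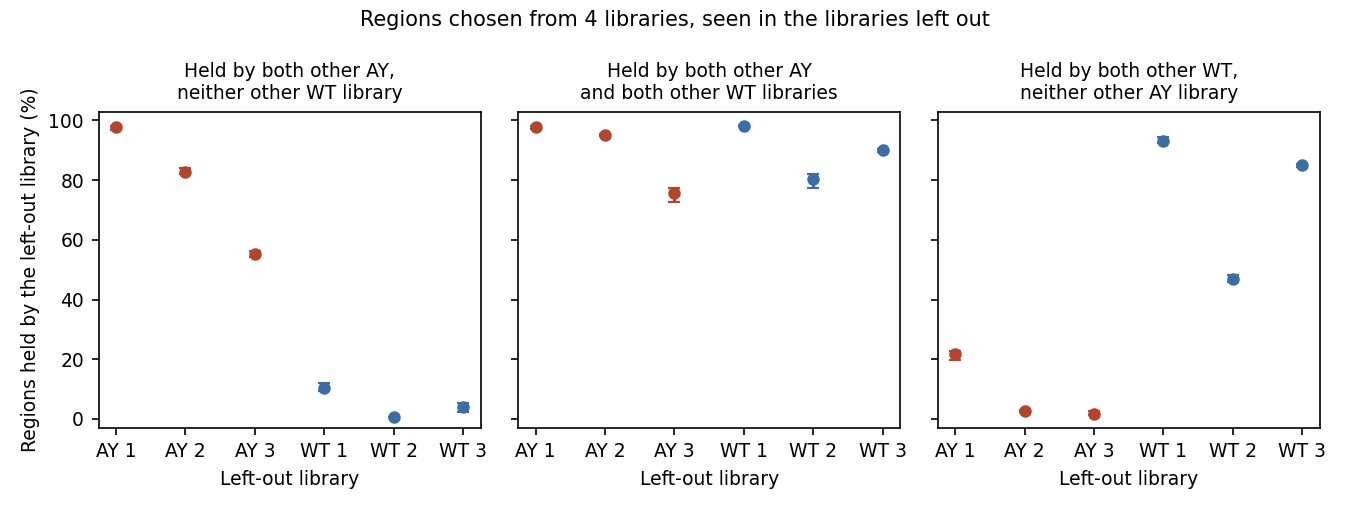
Share of regions (%, vertical axis) held by each left-out library (horizontal axis; AY in red, WT in blue), for regions chosen from the other 4 libraries by the rule above each panel. Points are means over the 3 partners left out with that library and bars run from the lowest to the highest partner. In the left panel AY libraries lie between 55.2% and 97.7% and WT libraries between 0.563% and 10.5%; in the middle panel both genotypes lie above 75%.

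Regions of both proteins were looked up in the same way. Their choice required a peak in both other WT libraries, where that of AY-only regions allowed none. A higher share in left-out WT libraries is thus partly built in. Where both other AY and both other WT libraries held a region, left-out AY libraries held 89.5% ± 12.1 and left-out WT libraries 89.5% ± 8.93 (SD, n = 3 each; exact permutation p = 1.0, two-sided). Averaged over partners, left-out WT libraries found 80.4% to 98.2% of these common sites and 0.563% to 10.5% of the AY-only sites. Common sites also scored higher. As rank divided by list length, 0% being the highest score, regions of all 6 libraries had medians of 11.6%, 15.6% and 25% in AY replicates 1, 2 and 3. AY-only regions held by 3 AY libraries had 21.5%, 33.9% and 44.5%. With at least 2 libraries of each genotype the medians were 20.8%, 29.1% and 27.2%, against 34.8%, 49.2% and 50.7% for all AY-only regions. The libraries were not compared at sites of like score. AY replicate 3 held fewer of the AY-only regions than of the common ones, 55.2% against 75.6%, as did AY replicate 2 with 82.8% against 95.2%. AY replicate 1 held 97.7% of both. For WT-only regions, chosen with the genotypes exchanged, left-out WT libraries held 74.97% ± 24.8 and left-out AY libraries 8.69% ± 11.2 (exact permutation p = 0.1, n = 3 each). The longest AY list, replicate 1, held 21.6% of those WT-only regions, against 2.75% and 1.72% for AY replicates 2 and 3.

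Regions held by 3 and by exactly 2 AY libraries were also looked up in each WT library left out of the rule in turn. In number, each set equals the 389 or 416 AY-only regions plus those that the left-out WT library held. The lookup thus counts the regions, described below, that 1 WT library alone kept out of the rule, and is not an independent check. The difference between the subsets was within the spread of the WT libraries. Left-out WT replicate 1 held 53 of 442 regions of 3 AY libraries, 12.0% (95% Wilson interval 9.29% to 15.4%), and 22 of 438 of exactly 2, 5.02% (3.34% to 7.49%). Left-out WT replicate 2 held 2 of 391 (0.512%, 0.140% to 1.85%) and 3 of 419 (0.716%, 0.244% to 2.08%). Left-out WT replicate 3 held 15 of 404 (3.71%, 2.26% to 6.03%) and 14 of 430 (3.26%, 1.95% to 5.39%). The intervals of the subsets were apart in WT replicate 1 and overlapped in WT replicates 2 and 3. The mean difference was 2.41 ± 3.96 percentage points, positive in 2 of 3 libraries (SD, n = 3 WT libraries, exact sign-flip permutation p = 0.5, smallest possible 0.25). The 3 values rest on largely the same regions and on the same AY lists, so this p and SD are descriptive. Regions of 1 AY library were held by WT replicates 1, 2 and 3 in 4.19%, 1.04% and 5.74% of cases. These intervals cover counting error only.

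Regions held by all 3 AY libraries stood higher in every AY list than those held by exactly 2. A region's place is given as the rank of its score divided by the length of the list, so that 0% is the highest score and 100% the lowest. The score is the authors' own value for each peak, read here as a log-scaled p-value of the peak caller, higher for smaller p. In AY replicate 1 the median place was 21.5% for regions held by 3 and 50% for regions held by exactly 2. The medians were 33.9% and 64.3% in AY replicate 2, and 44.5% and 69.9% in AY replicate 3. The gap was 28.1 ± 2.54 percentage points (SD, n = 3 lists), given as a description, since the scores belong to the calls that chose the regions.

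The scores themselves overlapped widely between the subsets. In AY replicate 1, regions held by 3 ran from a score of 63.6 to 2728 with a median of 245, and regions held by exactly 2 ran from 50.5 to 432 with a median of 119. In AY replicate 2 the medians were 147 and 78.8, and in AY replicate 3 they were 95.2 and 67.3. The upper end was confined to regions held by 3. Among the 100 highest-scoring peaks of at least 1 AY list were 35 AY-only regions, all held by 3. The top 25% of the list of AY replicate 1 contained 219 of the 389 and 45 of the 409 regions it held, and that of AY replicate 2 contained 139 of 389 and 4 of 333. For AY replicate 3 these were 94 of 389 and 1 of 90.

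**Figure D2:**
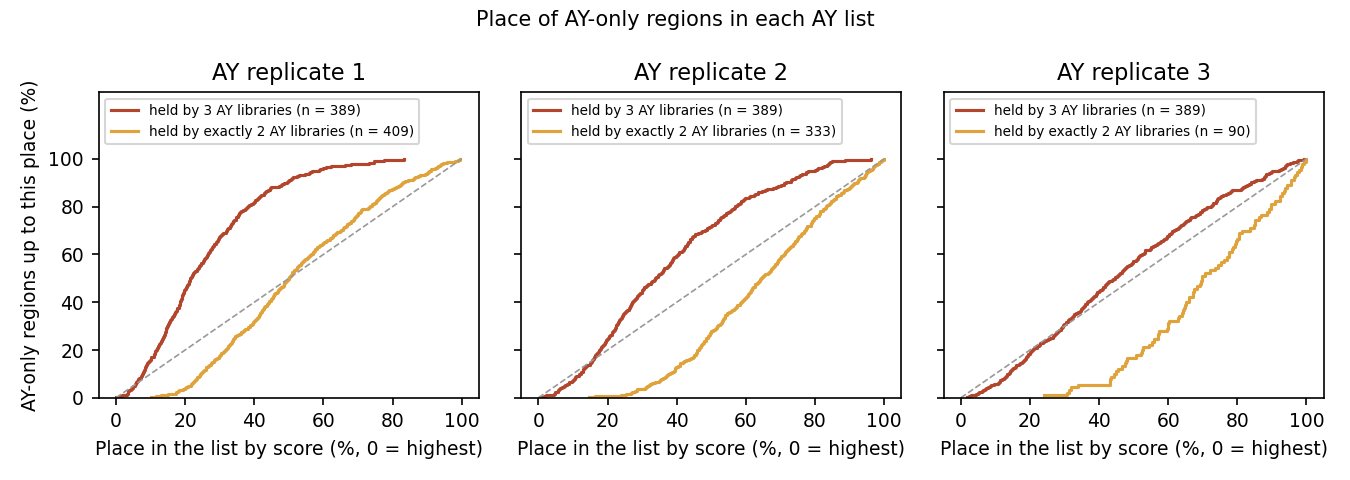
Cumulative share of AY-only regions (%, vertical axis) up to each place in the list of AY replicates 1, 2 and 3 (horizontal axis, %, 0 being the highest score), for regions held by 3 (red) and by exactly 2 AY libraries (orange); the dashed line is an even spread over the list. The red curve lies to the left of the orange one in all 3 lists, with medians of 21.5% against 50%, 33.9% against 64.3% and 44.5% against 69.9%.

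AY-only regions filled the middle of the AY lists more than the top. Each list was divided by rank into 10 bins of nearly equal size, bin 1 having the highest scores. In bin 1 they made up 28.8%, 19.4% and 20.4% of the regions of AY replicates 1, 2 and 3, while 71.2%, 80.6% and 78.7% had a peak in a WT library. In bin 2 the AY-only share was 60.0%, 48.3% and 46.8%. It peaked at 66.2% in bin 3 of AY replicate 1, at 67.1% in bin 5 of AY replicate 2 and at 55.5% in bin 7 of AY replicate 3. In bin 10 it was 11.1%, 29.0% and 36.1%, and regions seen in no other library took 73.6%, 55.2% and 45.4%. Counting only regions held by at least 2 AY libraries, the share without a WT peak was 28.8%, 19.4% and 20.95% in bin 1 and 80%, 71.2% and 76.5% in bin 10, where it rests on 30, 59 and 51 regions.

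**Figure D3:**
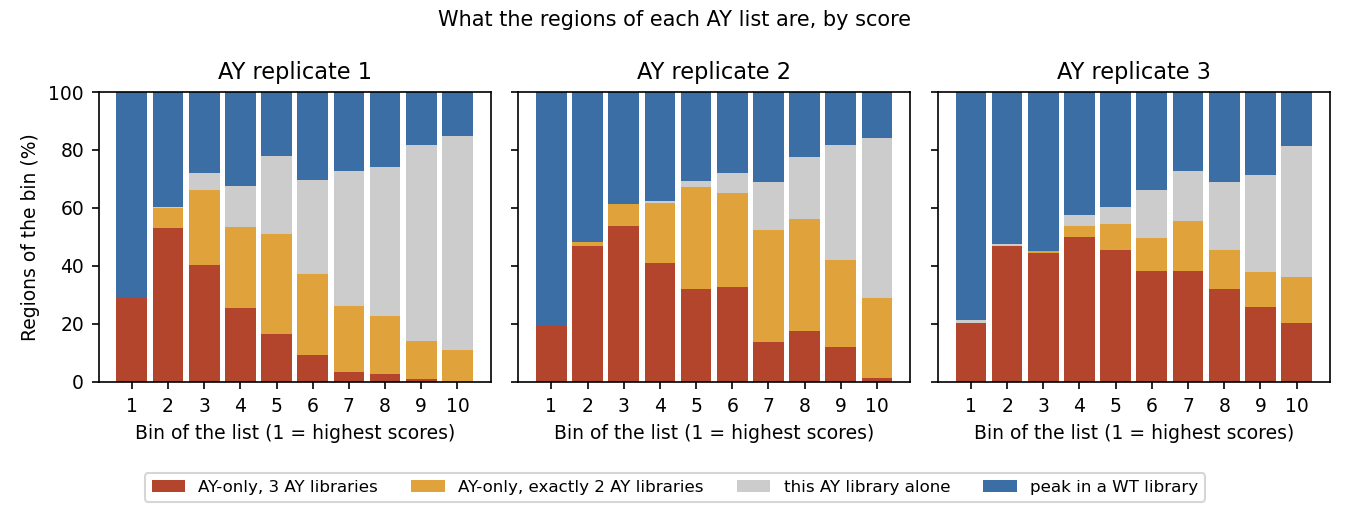
Make-up (% of regions, vertical axis) of each of 10 bins of the 3 AY lists (horizontal axis, bin 1 having the highest scores): AY-only regions held by 3 (red) or exactly 2 (orange) AY libraries, regions of that library alone (grey) and regions with a peak in at least 1 WT library (blue). Blue takes 71.2% to 80.6% of bin 1, and AY-only regions take 46.8% to 60.0% of bin 2.

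Values on either side of the rule showed a gradual passage. Just outside on the AY side were 1051 regions (25.3% of all) held by 1 AY library and no WT library. Their median place was 76.5%, 86.7% and 82.1% in AY replicates 1, 2 and 3, below that of the regions held by exactly 2. Just outside on the WT side were 109 regions (2.63%) held by at least 2 AY libraries and by 1 WT library, which was WT replicate 1 in 75 cases, WT replicate 3 in 29 and WT replicate 2 in 5. Their median place in the AY lists was 24.6%, 31.4% and 33.9%, against 34.8%, 49.2% and 50.7% for the AY-only regions as a whole. Those AY-only regions held by 3 had medians of 21.5%, 33.9% and 44.5%, so that against these the 109 stood lower in AY replicate 1 and higher in AY replicates 2 and 3. In the WT lists these 109 sat low, with medians of 66.4%, 77.8% and 67.8% in WT replicates 1, 2 and 3.

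The strongest AY-only region was chr7:110910356-110912391 (mm9, as all positions here), 2036 bp wide. It scored 2728, 1528 and 477 in AY replicates 1, 2 and 3 and ranked 3, 8 and 31. The nearest WT peak of any library lay 1713 kb away. It was the widest AY-only region held by 3.

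The second, chr12:60081788-60082759, scored 1275, 878 and 587 and ranked 24, 22 and 19. Its ranks lay closer together than those of the first, and a WT peak lay 152 kb away. The third, chr15:59033629-59034440, scored 1075, 791 and 449 and ranked 38, 31 and 34, with the nearest WT peak at 185 kb. All 3 regions thus ranked 38 or better in every AY list.

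Other strong regions were uneven between the lists. The region chr5:21301371-21302338 ranked 22 and 19 in AY replicates 1 and 2 and 60 in AY replicate 3. Conversely chr18:67877615-67878177 ranked 82 and 65 and then 25 in AY replicate 3, and chr9:50884871-50885759 ranked 75 and 140 and then 26. The latter had a WT peak 17.3 kb away, the nearest among the 10 strongest regions. The other 4 of the 10 were chr3:27108489-27109826, chr12:101353916-101354913, chr16:92399946-92400847 and chr6:88003504-88004438, with ranks from 40 to 172. Next to the first of these, another AY-only region lay 13.9 kb off, whereas the nearest WT peak was 6671 kb away.

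The order of the regions by score was similar in the 3 AY libraries. Over the 389 regions held by 3, Spearman's rho of the scores was 0.79 between AY replicates 1 and 2, 0.68 between 1 and 3, and 0.65 between 2 and 3. It was 0.84 to 0.89 over the 202 regions of all 6 libraries. Regions are not independent replicates, and each value shares the depth of its library.

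Among regions held by exactly 2, the strongest was chr10:94698627-94699495. It ranked 278 and 213 in AY replicates 1 and 2, with scores of 365 and 287, and had no peak in AY replicate 3. A second AY-only region lay 2.88 kb from it, and the nearest WT peak 24.8 kb from it. The next were chr17:66079327-66080328 (ranks 248 and 365), chr3:84450202-84450957 (374 and 343), chr1:168773237-168773995 (448 and 312) and chr8:88039177-88039906 (377 and 372), each missing from AY replicate 3. A WT peak lay 3.88 kb from the one on chromosome 17, the nearest of the 5. The 5 lowest AY-only regions by mean place were also held by exactly 2. They were chr16:32202106-32202727, chr13:75926343-75927033, chr6:146133942-146134393, chr14:55002987-55003453 and chr1:124253519-124254014. Their scores ran from 50.4 to 56.2 in AY replicate 2, close to the lowest score of 50.05 in that list.

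Peaks of different AY libraries lay at nearly the same place within a region. For regions held by 3, the centres of the peaks were a median of 34 bp apart between AY replicates 1 and 2, 33 bp between 1 and 3, and 39.5 bp between 2 and 3. At 92.0% to 92.8% of these regions the centres were within 100 bp. Over the 202 regions of all 6 libraries the medians were 30 to 34.5 bp. Regions held by exactly 2 had medians of 45 bp (AY replicates 1 and 2) and 42.5 bp (1 and 3).

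The median width of AY-only regions was 771 bp when held by 3 and 672.5 bp when held by exactly 2, against 529 bp for regions of 1 AY library and 899 bp for regions of all 6 libraries. Merging more peaks widens a region, but single peaks followed the same order. In AY replicate 1 the median peak was 752 bp in regions held by 3, 658 bp in those held by exactly 2 and 562.5 bp in regions of that library alone. A second peak of the same library within a region was rare, with 1 case each in AY replicates 2 and 3.

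The 3 widest AY-only regions were weak, unlike the strongest region. At chr15:33763923-33766756, 2834 bp wide, the ranks were 2102 and 999 in AY replicates 1 and 2. At chr4:3016566-3018830 and chr16:3265933-3268080, 2265 and 2148 bp wide, AY replicates 2 and 3 held low-ranked peaks (887 and 1049, 894 and 767). Both latter regions belong to the 7 that AY replicate 1 lacked. The other 5 of these 7 were chr1:124253519-124254014, chr12:86764631-86765217, chr13:4662037-4662397, chr5:4344398-4344871 and 1 region on random sequence of Y. No score of the 7 regions exceeded 96.1.

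AY-only regions were found on every numbered chromosome and on X. The 19 numbered chromosomes held 787 of the 805, with 22 on chromosome 14 to 70 on chromosome 1. Of the regions held by at least 2 AY libraries, the share without a WT peak ran from 52.3% on chromosome 19 to 71.0% on chromosome 15. Chromosome X held 12 AY-only regions, 57.1% of its 21 regions with at least 2 AY libraries. As a share of all regions on X this was 6.59%, where 86 of the 182 regions were seen in WT replicate 3 alone. Regions held by 3 exceeded those held by exactly 2 on chromosome 19 (16 and 7) and chromosome 9 (26 and 19), and fell below them on chromosome 4 (20 and 31) and chromosome 13 (19 and 27), differences that were not tested.

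Y, random and unplaced sequence held 6 AY-only regions, 1 of them held by 3. That one, on random sequence of chromosome 8 (529665 to 530409), ranked 654, 417 and 216. Of the others, 1 lay on Y and 2 on its random sequence. Neither WT replicate 1 nor WT replicate 3 had any peak on these sequences of Y, whereas WT replicate 2 had 18 and the AY libraries had 15 to 27, so absence in WT rests on WT replicate 2 alone at these 3 regions. Whether the mice differed in sex was not tested. On the numbered chromosomes and X, 799 AY-only regions remained.

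**Figure D4:**
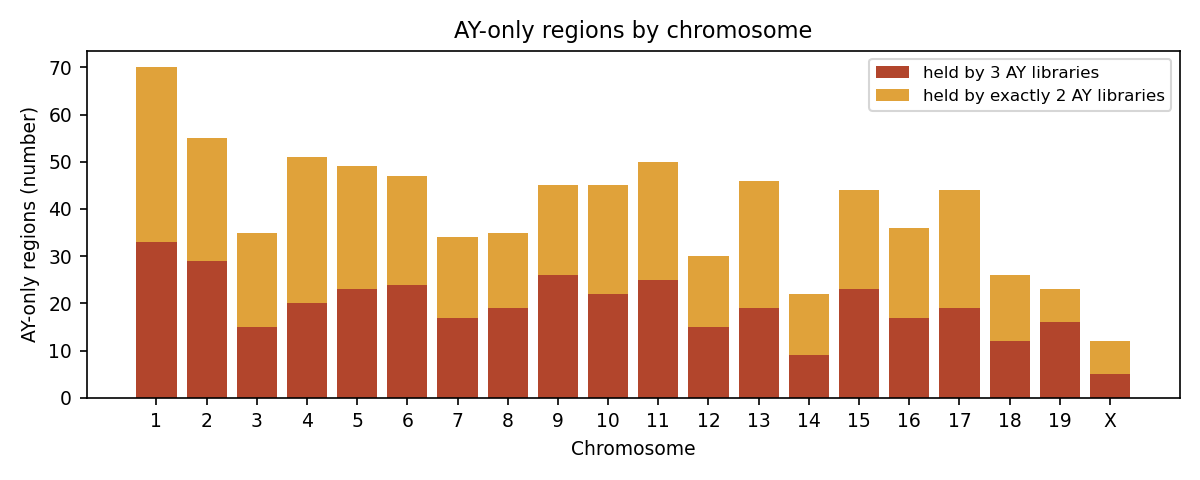
Number of AY-only regions (vertical axis) on each numbered chromosome and X (horizontal axis), held by 3 (red) or exactly 2 (orange) AY libraries. Counts run from 22 on chromosome 14 to 70 on chromosome 1, with 12 on X; the lengths of the chromosomes were not taken into account.

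Some AY-only regions occurred in groups. Of the 805, 70 (8.70%) lay within 10 kb and 170 (21.1%) within 50 kb of another AY-only region. Linked at up to 100 kb, 225 regions formed 102 groups, 83 of them pairs, 17 of 3 regions and 2 of 4. Regions held by 3 had another AY-only region within 50 kb in 23.9% of cases and regions held by exactly 2 in 18.5%. Regions of 1 AY library lay that near to an AY-only region in 12.8% of cases. How often regions at large lie this near to each other was not computed, so the grouping is a description.

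The more compact group of 4 covered 47.6 kb on chromosome 9, from 58389510 to 58437142. All 4 regions in this span were AY-only and no WT library had a peak there. The first and last were held by 3, ranking 1073, 766 and 922, and 767, 545 and 378. The other group of 4 spanned 92.5 kb on chromosome 1, from 155852918 to 155945389. Its leading region, chr1:155852918-155853900, ranked 109, 69 and 266, and 1 of the 6 regions in the span had a WT peak.

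Tighter groups were found on chromosomes 13 and 6. Within 9.73 kb of chromosome 13, from 111722615 to 111732348, lay 3 AY-only regions. The last of them ranked 181, 314 and 181. On chromosome 6, 3 regions held by all AY libraries lay within 10.2 kb, from 87458934 to 87469161, with ranks from 441 to 1175. On chromosome 5, another 3 regions held by all AY libraries were spread over 144 kb, from 20789944 to 20934291, with no other region between them. On chromosome 6, from 38799667 to 38888916, each of 3 AY-only regions was missing from AY replicate 2, a pattern that 83 of the 805 had. Of the 5 regions in this span, 1 had a WT peak.

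A further stretch of chromosome 1, from 39349708 to 39918378, held 8 regions and no WT peak. Of these, 4 were AY-only and the other 4 were seen in 1 AY library each. The single one held by all AY libraries, chr1:39659165-39659948, ranked 486, 521 and 801.

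WT peaks, which by the rule cannot overlap an AY-only region, were also sought nearby. The nearest WT peak was a median of 189 kb from regions held by 3 and 154 kb from regions held by exactly 2. Within 1 kb there was one at 8 of 389 and 8 of 416 regions, and within 50 kb at 25.7% and 30.5%. Regions of 1 AY library had a WT peak within 50 kb in 22.6% of cases. Regions of all 6 libraries lay within 50 kb of 27 of the 389 and 17 of the 416.

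At 7 AY-only regions a WT peak began within 500 bp without overlap. The closest was chr8:36618921-36619709, held by 3 with ranks of 695, 532 and 292. All 3 WT libraries had a peak just beyond its end, at gaps of 31, 13 and 42 bp in WT replicates 1, 2 and 3, ranking 721, 597 and 271. This region is AY-only by the overlap rule although every WT library marked the adjoining sequence. At the other 6 the neighbouring peak came from WT replicate 1 alone. The best of these peaks, rank 649, lay 497 bp beyond chr13:111731438-111732348, and the others ranked between 1031 and 1379. When peaks up to 1 kb apart were merged, 786 AY-only regions were counted in place of 805.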

How the data were processed

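Each ChIP library came with 1 deposited peak list, so the authors called peaks per library. The tools named in the submitters' processing notes are MACS 1.4, Bowtie2 and bcl2fastq 2.15.0, with mm9 as the build. Their settings, the treatment of duplicate reads and the role of the inputs are not stated in these sources; input values were not analysed here. Per the labels' protocols, chromatin was fixed with 1% formaldehyde for 10 min. The deposited score of each peak has no unit in the files; no value lies below 50, and it was used to rank, filter or describe peaks within a list, not to compare levels between lists. Read depth is unknown.

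Peaks were merged, counted and looked up with Python 3.11.15, numpy 2.4.6, pandas 2.3.3 and scipy 1.17.1. In the left-out comparison, regions were merged anew from the 4 remaining libraries before the pair was looked up, and percentages were averaged over the 3 partners of each library. The counting was tested on simulated data. A region is printed counting from 1.

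The members, lists and tests were chosen with earlier results of these data known. Named regions are the 10 AY-only regions held by 3 and the 5 held by exactly 2 with the best mean place, the 5 with the worst, and the 3 widest; groups, neighbours of WT peaks, the 7 regions missing from AY replicate 1, and those off the numbered chromosomes and X were singled out after their values were seen. Planned comparisons of sequence elements, genes and marker genes were not made. WT and AY libraries share replicate numbers, which were not taken to pair them. Alternatives were a score of at least 100, equal lists of 826 peaks, merging up to 1 kb apart, 50% overlap, restricted chromosomes and each library left out.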

Additional observations from a re-analysis of the deposited data

How the results depend on the processing

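Restricting the lists to scores of at least 100 left 441 AY-only regions, 220 held by 3 and 221 by exactly 2; with the 826 top peaks of every library there were 466, 307 and 159. Both settings use fewer peaks, and AY-only regions were then 22.2% and 22.0% of all regions, against 19.4%. Leaving out each library gave 396 to 880 AY-only regions, 391 to 442 held by 3 (WT libraries only, since 3 AY libraries are needed) and 396 to 715 held by exactly 2. Merging up to 1 kb apart, 50% overlap, and the numbered chromosomes with or without X kept all 3 counts within 1.5 times; the last of these was added after the data were seen.

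The difference between left-out AY and WT libraries kept its direction in all 14 alternatives, from 47.9 to 85.2 percentage points. Their permutation or sign-flip p ran from 0.1 to 0.25, the smallest each design allows. None of these is an independent test of the result, since all chose and looked up regions in the same peak lists. For this difference, leaving out a library only dropped its value from the mean, and the regions were not chosen anew. The highest difference was the main result without the value of AY replicate 3. The lowest came from regions held by both remaining AY libraries whatever WT held. Under a replicate block the difference was 73.6 points, the same as the main one by construction (exact sign-flip p = 0.25). Same-numbered libraries deviated together at correlations of 0.096, 0.086 and 0.195, and every library's closest counterpart in the other genotype had the same number, which the data hint at and the design does not state. The gap in place between regions held by exactly 2 and by 3 stayed between 27.4 and 29.9 points in 6 alternatives chosen after the data were seen. Alternatives for motifs and gene distances were not run. Unknown depth limits every absence of a peak.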
